A study of Mus musculus with 6 samples.

Results

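The 10 genes described here make, carry or burn fatty acids or are products of fat cells, and their RNA was measured in sorted mouse endothelium after tobacco smoke. Fasn, Mgll, Acsl3, Fabp4 and Fabp5 encode lipid enzymes and carriers that endothelium can also make, Thrsp, Ucp1 and Cidea encode proteins of fat storage and heat production in fat cells, and Adipoq and Retn encode hormones of fat cells. They were found by gene symbol among 11138 named genes, and all 10 were measured, on 22 of 32448 spots. The choice was made with the log ratios of both exposure times in view, so the values of the 10 genes are given as a description, with no p-value, and no test of them is used as support.

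The arrays each compared 2 RNA samples, and the value used is the log2 ratio of smoke over control as deposited. Mice given smoke for 6 weeks were compared with 1-week control mice on 1 array and its labelled dye reversal, and with 6-week control mice on 1 further array. For the first of these arrays only the description names 1-week control. Its title reads smoke against control at 6 weeks, as does that of the further array. Mice given smoke for 1 week were compared with control mice, at a time the labels do not state, on 3 arrays, of which replicate 1 was labelled a dye reversal and replicates 2 and 3 were not. Whether arrays share control RNA is not stated. The array of 6-week smoke against 1-week control and its dye reversal were averaged as 1 replicate, which left 2 replicates at 6 weeks and 3 at 1 week. The labels do not say which array the 1-week dye reversal repeats; if it repeats another of these, the 1-week replicates are 2. The mice's strain, sex and age, the tissue, the sort and the dose of smoke are not given in the sources used here, and no label says that replicates came from separate animals, so the spread between them may be technical. A ratio gives no level, so whether endothelial genes were abundant in these samples could not be checked.

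Fatty acids reach tissues through the capillary wall. Lipoprotein lipase, held on capillary endothelium, frees them from lipoproteins, and binding proteins such as Fabp4 and Fabp5 carry them inside the cell. Fatty acid synthase makes them anew, acyl-CoA synthetases activate them for storage or burning, and monoacylglycerol lipase completes the breakdown of stored fat. Brown fat burns them for heat through Ucp1, an uncoupler of mitochondrial respiration, while white fat stores them and secretes adiponectin and, in mice, resistin.

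Whether a dye-reversed array had been turned before deposit is not stated. The labels put smoke in channel 1 of every array, so a negative log2 ratio is read here as likely lower after smoke, with the deposited signs kept. Across named genes the array of 6-week smoke against 1-week control and its dye reversal correlated at r = -0.0302, and at r = 0.166 over the 2023 genes with spots within 0.5 of each other, and neither value settles the sign. The 6-week dye reversal correlated more with the other dye-reversed array, that of 1-week smoke, at r = 0.272 over named genes and r = 0.510 over those 2023 genes. Over the same genes, 1-week replicates 2 and 3, with no dye-reversal label, correlated with each other at r = 0.558. They correlated with the array of 6-week smoke against 1-week control at r = 0.340 and 0.225. With the 6-week dye reversal the values were 0.0104 and -0.00318, and with the 1-week dye reversal 0.299 and 0.320. What arrays of the same dye label share beyond it was not tested, and the sizes below rest on the deposited signs. Of the 10 genes, 9 had the same sign on both arrays as deposited, where 45.8% of 11138 named genes did. The genes were chosen with these values in view, so nothing about the sign is read from this count. For Fasn the values were -1.16 and -1.41, for Ucp1 -1.35 and -2.02, and for Acsl3 -0.79 and -1.15. The exception was Adipoq at -0.18 and 0.15. If the dye reversal were turned, the values of these 9 genes would oppose each other within the pair.

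**Figure D1:**
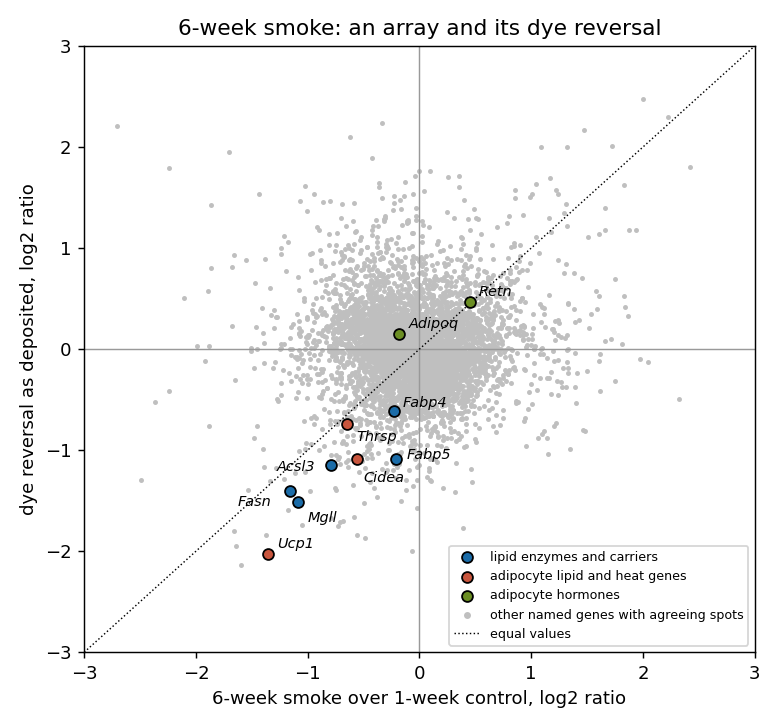
Each point is a gene, with its log2 ratio on the array of 6-week smoke against 1-week control on the x axis and on the dye reversal, signed as deposited, on the y axis. Coloured points are the 10 genes and grey points are other named genes whose spots differed by less than 1 on every array, of which 3 beyond the axes are not drawn; 8 of the 10 genes lie in the lower left, Retn lies in the upper right and Adipoq near 0.

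The starts of 5 genes are shown because 4 of them, Fasn, Mgll, Acsl3 and Ucp1, had the lowest 6-week means of the 10 genes, while Adipoq, a marker of the fat cell, stood near 0. Each window runs from 250 bases before to 50 bases after a RefSeq start on GRCm38.p6, 5′ to 3′ on the gene's strand. Capitals mark matches on either strand to 6 motifs. These are CCAAT, the GC box written GGGCGG, the TATA box written TATAAA, the E box written CACGTG, the sterol response element core written TCACNCCAC and the nuclear receptor element written AGGTCA. The TATA box was found in 13.6% of all windows and the sterol response element core in 1.24%, and neither in the windows printed here. Adjacent capitals can join 2 matches, and the pair in Fasn overlaps.
Fasn, chr11:120824498-120824797, minus strand: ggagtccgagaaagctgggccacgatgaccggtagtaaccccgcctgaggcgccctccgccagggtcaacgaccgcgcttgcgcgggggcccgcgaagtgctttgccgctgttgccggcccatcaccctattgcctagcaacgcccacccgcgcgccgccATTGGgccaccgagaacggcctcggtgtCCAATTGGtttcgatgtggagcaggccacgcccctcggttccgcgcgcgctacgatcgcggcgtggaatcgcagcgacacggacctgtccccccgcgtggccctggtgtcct
Mgll, chr6:88724162-88724461, plus strand: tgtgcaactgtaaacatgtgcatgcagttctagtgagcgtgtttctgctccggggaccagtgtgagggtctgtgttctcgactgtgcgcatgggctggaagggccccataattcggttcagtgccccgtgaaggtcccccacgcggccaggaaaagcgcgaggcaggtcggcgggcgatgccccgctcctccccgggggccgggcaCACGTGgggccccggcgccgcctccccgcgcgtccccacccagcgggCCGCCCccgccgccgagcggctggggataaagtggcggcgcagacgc
Acsl3, chr1:78657575-78657874, plus strand: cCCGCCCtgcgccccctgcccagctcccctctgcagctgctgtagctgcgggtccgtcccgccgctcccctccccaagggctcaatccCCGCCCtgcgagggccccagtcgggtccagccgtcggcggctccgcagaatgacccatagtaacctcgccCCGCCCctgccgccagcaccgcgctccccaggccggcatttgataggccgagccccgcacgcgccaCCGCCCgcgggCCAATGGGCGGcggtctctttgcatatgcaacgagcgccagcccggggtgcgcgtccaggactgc
Ucp1, chr8:83290098-83290397, plus strand: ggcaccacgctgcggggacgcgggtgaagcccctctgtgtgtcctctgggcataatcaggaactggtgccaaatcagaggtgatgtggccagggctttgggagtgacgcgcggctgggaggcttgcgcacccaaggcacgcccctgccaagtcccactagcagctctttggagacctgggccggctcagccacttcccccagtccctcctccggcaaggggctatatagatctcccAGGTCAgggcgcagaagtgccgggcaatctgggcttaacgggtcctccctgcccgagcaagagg
Adipoq, chr16:23146286-23146585, plus strand: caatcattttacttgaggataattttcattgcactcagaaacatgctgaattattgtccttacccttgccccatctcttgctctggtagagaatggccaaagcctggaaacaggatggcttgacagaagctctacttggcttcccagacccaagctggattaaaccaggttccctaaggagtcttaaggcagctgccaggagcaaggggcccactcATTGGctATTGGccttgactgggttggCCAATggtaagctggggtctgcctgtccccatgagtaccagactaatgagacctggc
Fasn held 3 CCAAT matches, at -90, -62 and -59 from the start, and Adipoq also held 3, at -34, -27 and -7. CCAAT was found in 37.4% of 32817 windows of this length. Acsl3 held 5 GC boxes and 1 CCAAT, and Mgll held 1 GC box and 1 E box, where 35.6% of all windows held a GC box and 7.15% an E box. Ucp1 held 1 nuclear receptor element, at -14, found in 16.3% of windows. No motif was common to the 4 genes with the lowest 6-week means. The windows of Fasn, Mgll and Acsl3 were 69.3%, 70.0% and 74.0% G or C and that of Ucp1 64.7%, against a median of 52.7% over all windows. Windows of Thrsp and Retn were searched too, with 2 CCAAT matches in Thrsp and no match in Retn. Another Mgll window, at a later start, held 1 GC box and no E box. Fabp4, Fabp5 and Cidea are named only.

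After 6 weeks of smoke, Fasn and Mgll had the lowest mean ratios of the 10 genes, Ucp1 and Acsl3 came next, and the hormones had the highest. Fasn, which builds palmitate from acetyl and malonyl units, was at -1.16 against 1-week control, -1.41 on the dye reversal and -1.41 against 6-week control. At 1 week Fasn was at -0.74 on the dye reversal, -0.36 on replicate 2 and -0.49 on replicate 3. All 6 arrays were negative, and every 6-week value lay below every 1-week value. The means were -1.35 ± 0.19 at 6 weeks and -0.53 ± 0.16 at 1 week, where each error is the SE from limma's fit over all genes, with 2 and 3 replicates. The 6-week mean stands for a level of 39.4% of control.

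Mgll, which cleaves monoglycerides and also degrades the endocannabinoid 2-arachidonoylglycerol, was at -1.08, -1.51 and -1.38 on the 6-week arrays in the same order. Its 1-week values were -0.24, -0.14 and -0.11. Mgll was thus negative on all 6 arrays but close to 0 after 1 week, and the exposure times did not overlap. The means were -1.34 ± 0.18 at 6 weeks and -0.16 ± 0.14 at 1 week.

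Acsl3, an acyl-CoA synthetase of the endoplasmic reticulum and of lipid droplets, followed the same course. It was at -0.79, -1.15 and -1.17 at 6 weeks. At 1 week it was at 0.01, -0.25 and -0.10, around 0 and apart from every 6-week value. The means were -1.07 ± 0.19 at 6 weeks and -0.11 ± 0.15 at 1 week. Only 3 of the 11138 named genes lay below -1 on all 3 6-week arrays, and Fasn and Mgll were 2 of them. Below -1 on all 3 lay 0.0312% of 19242 tests. Since the genes were chosen on these values, this places them among all genes and is no test.

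Of the carriers, Fabp5, the epidermal fatty acid carrier, was at -0.21, -1.08 and -0.52 at 6 weeks. At 1 week it was lower on the whole, at -1.61, -1.06 and -1.15, but the lowest 6-week value, that of the dye reversal, reached into the 1-week range. The means were -0.58 ± 0.22 at 6 weeks and -1.28 ± 0.18 at 1 week. Fabp5 was the only one of the 5 enzymes and carriers whose 6-week mean lay above its 1-week mean, by 0.69 ± 0.28. Its paired spots differed by at most 0.09 on any array.

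Fabp4, the carrier of fat cells, macrophages and capillary endothelium, was represented by 2 pairs of spots that disagreed. The first pair averaged -0.46, -1.25 and -0.82 at 6 weeks, and -0.45, 0.17 and 0.18 at 1 week. The second pair read 0.00, 0.03 and -0.96 at 6 weeks and 0 on all 3 arrays at 1 week. Between 6.76% and 12.6% of all spots per array are listed at exactly 1.00-fold, more than at the neighbouring hundredths, and what that entry stands for is not stated. Over all 4 spots Fabp4 had means of -0.66 ± 0.22 at 6 weeks and -0.02 ± 0.18 at 1 week. With entries of exactly 1.00-fold treated as missing, an alternative chosen after seeing the data, the 6-week mean was -0.71.

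**Figure D2:**
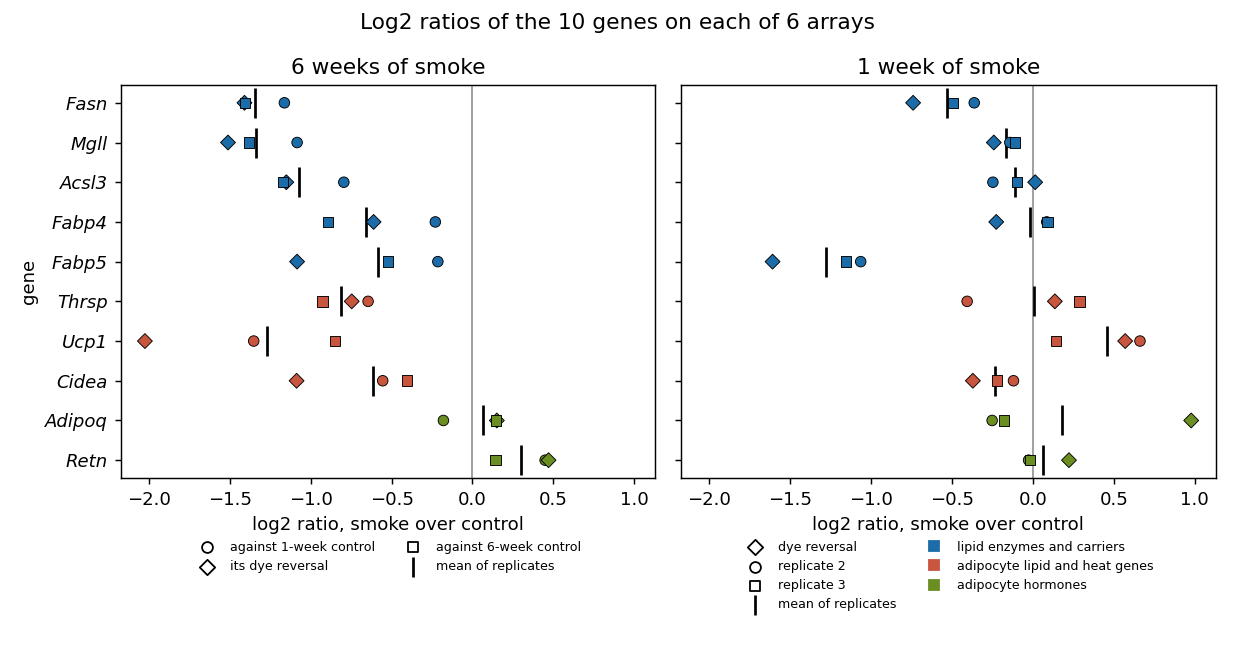
Log2 ratios (x axis, smoke over control as deposited) of the 10 genes (y axis) on the 6-week arrays at the left and the 1-week arrays at the right. Symbols are arrays, black bars are means of replicates, with the dye swap averaged first, and colours are the gene groups; Fasn and Mgll lie below -1 on all 3 6-week arrays, Ucp1 lies on opposite sides of 0 at the 2 times, and Adipoq and Retn lie around or above 0 at 6 weeks.

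Of the genes of fat storage and heat, Ucp1 changed place most between the exposure times. It was at -1.35, -2.02 and -0.85 at 6 weeks. At 1 week it was at 0.57, 0.66 and 0.14. All 6-week values were negative and all 1-week values positive. The means were -1.27 ± 0.28 at 6 weeks and 0.46 ± 0.23 at 1 week, and its spots differed by at most 0.17. Cidea, a lipid droplet protein abundant in brown fat, was at -0.55, -1.09 and -0.40 at 6 weeks. At 1 week it was at -0.37, -0.12 and -0.22, also negative on every array but above all 6-week values. Thrsp, which promotes fatty acid synthesis under thyroid hormone and carbohydrate feeding, was at -0.65, -0.75 and -0.93 at 6 weeks. Its 1-week values were 0.14, -0.41 and 0.29, on both sides of 0 and above those of 6 weeks. The 6-week means were -0.61 ± 0.20 for Cidea and -0.81 ± 0.24 for Thrsp, against 1-week means of -0.24 ± 0.17 and 0.01 ± 0.20.

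The hormones did not share these values. Adipoq, which encodes adiponectin, was at -0.18, 0.15 and 0.15 at 6 weeks. At 1 week it was at -0.25 and -0.18 on replicates 2 and 3 but at 0.98 on the dye reversal, so its 1-week mean of 0.18 ± 0.28 rests on that array and was -0.21 without it. Its 6-week mean was 0.07 ± 0.35. Retn, which encodes resistin, was at 0.45, 0.47 and 0.14 at 6 weeks and at 0.22, -0.03 and -0.02 at 1 week. Its means were 0.30 ± 0.20 at 6 weeks and 0.06 ± 0.16 at 1 week, and the exposure times overlapped for both hormones.

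The order of 6-week means ran from Fasn, Mgll, Ucp1 and Acsl3 through Thrsp, Fabp4, Cidea and Fabp5 to Adipoq and Retn. Neighbouring genes differed by less than the SE of their difference, except Fabp5 and Adipoq, which differed by 0.65 with an SE of 0.41. This SE combines the SEs of both genes as if independent, although all genes were read on the same arrays. The genes were ordered by the values they were chosen on. Of the 10 genes, 8 were negative on all 3 6-week arrays, where 9.68% of 19242 tests were, and 1, Retn, was positive on all 3, where 8.84% were. For 7 genes the 6-week values all lay below the 1-week values, where 4.74% of tests did. For Fabp4 this rests on -0.2296 at 6 weeks against -0.2262 at 1 week. For 0 genes they all lay above, where 4.39% of tests did. Below -0.5 on all 3 6-week arrays lay 5 genes, Fasn, Mgll, Acsl3, Thrsp and Ucp1, where 0.489% of tests did. At 1 week 4 genes were negative on all 3 arrays, where 12.4% of tests were, and 1, Ucp1, was positive on all 3, where 11.7% were. Fasn, Mgll, Fabp5 and Cidea were negative on all 6 arrays, as were 2.46% of tests. The genes were chosen on these contrasts, so nothing is read from these counts.

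Paired spots bear on how well each value was read. The largest gap between spots of a gene on any array had a median of 0.46 over the 10 genes, against 0.99 over all named genes. It was below 1 for all but Fabp4, where the 2 pairs disagreed by up to 1.32. Cidea had the next widest gap, 0.81, and Retn 0.61. Intensities were not used here, so it is not known how bright these spots were.

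The 6-week values of Fasn, Mgll and Acsl3 were alike against both controls, whereas those of Ucp1 differed more. Those of Fabp4 differed on only 1 of its 2 pairs of spots. Fasn was at -1.41 against 6-week control and -1.29 against 1-week control as the mean of the dye swap, Mgll at -1.38 and -1.30, and Acsl3 at -1.17 and -0.97. Ucp1 was at -0.85 against 6-week control and -1.69 against 1-week control, and Fabp4 at -0.89 and -0.42. The first pair of Fabp4 spots was at -0.82 against 6-week control, between the -0.46 and -1.25 of the dye swap. The second pair was at -0.96 against 6-week control, and at 0.00 and 0.03 on the dye swap. That 0.00 is an entry of exactly 1.00-fold, whose meaning is not stated, and the Fabp4 difference rests on this pair. Cidea was at -0.40 and -0.82, a difference smaller than the 0.53 between the arrays of its dye swap. Other genes of lipid supply and storage also differed with the control. Gpihbp1, which anchors lipoprotein lipase on capillary endothelium, was at -0.16 against 6-week control and -1.87 against 1-week control, and Lpl, the lipase itself, at 0.33 and -0.96. Dgat2, which makes triglycerides, differed the other way, at -1.06 and -0.07, with 1 array of the dye swap at 0. Plin2, a coat protein of lipid droplets, was at -0.09 and -0.92, and Pnpla2, the first lipase of fat breakdown, at -0.19 and -1.07. Kdr, a growth factor receptor that marks endothelium, was at 0.08 and -1.21. Only 1 array had 6-week control, so these differences have no replicate check, and control time, animals and array cannot be told apart.

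**Figure D3:**
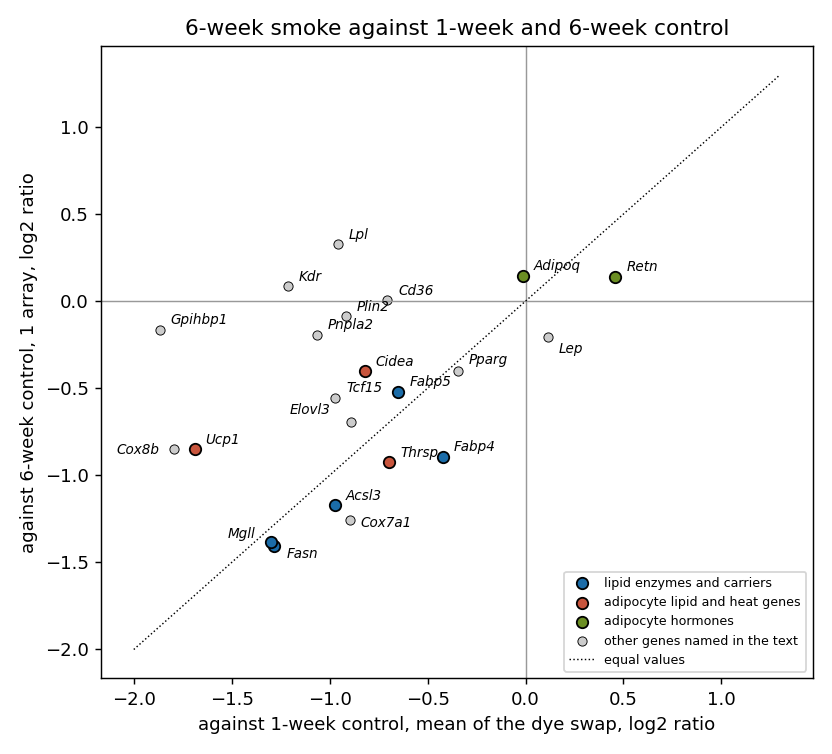
Log2 ratios of 6-week smoke against 6-week control (1 array, y axis) and against 1-week control (mean of the dye swap, x axis), for the 10 genes in colour and other genes named in the text in grey. Fasn, Mgll and Acsl3 lie near the line of equal values, Ucp1 and Cox8b lie above it at about -0.85 on the y axis, and Gpihbp1 and Kdr lie near 0 against 6-week control.

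Other genes of lipid handling were then read from 6 lists, of synthesis, uptake, lipolysis and droplets, oxidation, fat cell markers and brown fat markers. Together these held 99 measured genes besides the 10. By limma, with p-values adjusted by Benjamini and Hochberg's method over 19242 tests, 0 features passed at 6 weeks, with a smallest adjusted p of 0.556, and 0 at 1 week, with a smallest adjusted p of 0.178. Limma with robust moderation also gave 0. At an unadjusted p under 0.05, 5 of the 99 genes were negative and 1 positive at 6 weeks, where 1.83% and 2.2% of all named genes were. At 1 week 2 were negative and 4 positive, where 3.56% and 3.93% of all named genes were. For 6-week minus 1-week 7 were negative and 1 positive, where 1.86% and 1.53% were. Over the 5625 genes with agreeing spots alone, limma's adjusted test passed 2 negative genes (0.0356%), Fasn and Mgll, and 10 positive ones (0.178%) at 6 weeks. At 1 week it passed 45 negative genes (0.8%), Fabp5 among them, and 57 positive ones (1.01%). The 3 genes were chosen on these values, so their place there is no support.

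The brown fat list held 3 of the 5 negative genes at 6 weeks, out of 13 measured, where 1.83% of all named genes were negative. It was chosen with earlier results of these data known, so this count is given as a description. Cox8b, a subunit of cytochrome c oxidase in muscle and brown fat, was at -1.64, -1.95 and -0.85 on the 6-week arrays, and at -0.09, -0.31 and 0.20 at 1 week. All its 6-week values lay below its 1-week values, as for Ucp1. Cox7a1, another such subunit, was at -0.74, -1.05 and -1.25 at 6 weeks and at -0.18, -0.08 and -0.02 at 1 week. Elovl3, which lengthens fatty acids in brown fat under cold, was at -0.67, -1.11 and -0.69 at 6 weeks and at 0.00, 0.69 and -0.28 at 1 week. The 6-week means were -1.32 ± 0.29 for Cox8b, -1.07 ± 0.19 for Cox7a1 and -0.79 ± 0.28 for Elovl3, with limma adjusted p-values of 0.96, 0.809 and 1. The spots of Cox7a1 and Elovl3 differed by up to 1.28 and 1.64, while those of Cox8b differed by at most 0.34. Of the 13 genes, 11 had a negative 6-week mean and 6 a negative 1-week mean. The 2 positive 6-week means were those of Ppargc1a, 0.29, and Bmp8b, 0.01. The list's medians were -0.17 at 6 weeks and 0.03 at 1 week, against -0.01 over all named genes at each time. With the 6-week dye reversal turned, 0 of the 99 lipid genes reached an unadjusted p under 0.05 at 6 weeks.

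Fat cell markers, a list not limited to white fat, had nearly the same 6-week median as brown fat markers, -0.16 against -0.17. Of 20 measured, 14 had a negative 6-week mean, and 0 reached an unadjusted p under 0.05. Lep, the hormone leptin, was at 0.11, 0.12 and -0.21 on the 6-week arrays, and Pparg, the master regulator of fat cells, at -0.38, -0.31 and -0.40. Cebpa, which acts with Pparg, was at 0.09, -0.37 and -0.12. The spots of these 3 genes differed by more than 1 on some array. Cfd and Plin1 were not analysed here. In such samples fewer fat cells and less RNA per fat cell cannot be told apart, and the part of fat cell RNA in the values of the 10 genes was not tested.

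Endothelial markers were lowest on the array where Ucp1 was lowest. Of 15 measured, 11 had a negative 6-week mean and 10 a negative 1-week mean. Cldn5, a tight junction protein, was the only one with an unadjusted p under 0.05 at 6 weeks, with a mean of -0.90 ± 0.21, against -0.68 ± 0.17 at 1 week, and it was chosen after its values were seen. That is 1 of 15 negative at 6 weeks, where 1.83% of named genes were. At 1 week 4 of 15, Cldn5, Eng, Egfl7 and Robo4, were negative and 1, Tek, positive at that p, where 3.56% and 3.93% were. The list's medians were -0.21, -0.48 and 0.01 on the 6-week arrays and -0.21, -0.18 and -0.17 on the 1-week arrays. Pecam1 was at 0.06, -0.22 and 0.61, Cdh5 at -0.05, -0.34 and 0.44, and Kdr at -0.71, -1.72 and 0.08 at 6 weeks, each lowest on the dye reversal. The spots of Cdh5 differed by up to 8.13 on an array and those of Pecam1 by up to 1.16, so their means say little, while those of Kdr differed by at most 0.15. On that array Ucp1, Cidea, Mgll and Fabp5 also had their lowest 6-week values. So had Fasn, though only at -1.409 against -1.405 on the array against 6-week control. Without the dye reversal the 6-week means were -1.28 for Fasn, -1.23 for Mgll, -1.10 for Ucp1, -0.48 for Cidea and -0.37 for Fabp5. For Fabp5 this is a change by more than 1.5 times. Acsl3, Fabp4 and Thrsp were lowest against 6-week control instead, at -1.17, -0.89 and -0.93. Without that array the 6-week mean of Fabp4 was -0.42. The part of the endothelial markers in these values was not tested.

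Among genes of fatty acid supply, the transcription factor Tcf15, which drives fatty acid transport genes in capillary endothelium, was at -0.60, -1.34 and -0.55 at 6 weeks and at -0.57, 0.30 and -0.27 at 1 week. Gpihbp1 was at -1.60, -2.14 and -0.16 at 6 weeks and at -0.04, -0.46 and -0.77 at 1 week, negative on all 6 arrays. Of 21 uptake genes, 13 had a negative mean at 6 weeks and 12 at 1 week, with medians of -0.17 and -0.08. Cd36, a fatty acid receptor, was at -0.06, -1.36 and 0.01 at 6 weeks and at 0.28, 0.74 and 1.91 at 1 week. Its 1-week mean of 0.98 ± 0.35 had a limma adjusted p of 0.739. Scarb1, a lipoprotein receptor, had a 6-week mean of -0.16 ± 0.20 and a 1-week mean of -0.55 ± 0.17.

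The other genes of the synthesis list all had higher 6-week means than Fasn. Of these 17 other measured genes, 13 had a negative 6-week mean, with a median of -0.21, and the lowest of these means was -0.57, for Dgat2. Dgat2 was at 0, -0.14 and -1.06 on the 6-week arrays, so its mean rests on the array against 6-week control and was -0.07 without it. Scd2, a fatty acid desaturase, was positive at 0.38, 0.57 and 1.16 at 6 weeks, against -0.22, -0.16 and -0.01 at 1 week, with a 6-week mean of 0.82 ± 0.23 and a limma adjusted p of 1. Scd1, its relative in liver and fat, had means of -0.35 ± 0.19 at 6 weeks and -0.04 ± 0.16 at 1 week. Dgat1 had means of 0.0018 ± 0.20 and -0.40 ± 0.17. Of the 17 lipolysis and droplet genes, 8 had a negative 6-week mean, with a median of 0.01 and none at an unadjusted p under 0.05. Pnpla2 had the lowest, -0.63 ± 0.26, followed by Plin2 at -0.50 ± 0.25.

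Genes of fatty acid burning had a 6-week median of -0.06 over 21 genes, 13 of them negative. Etfb, which passes electrons from fatty acid oxidation to the respiratory chain, was at -0.9997, -0.34 and -0.77 at 6 weeks and at 0.14, -0.03 and 0.43 at 1 week. At 1 week 3 of the 21 had an unadjusted p under 0.05, all positive. Acadm, a medium-chain dehydrogenase, had means of -0.37 ± 0.24 at 6 weeks and 0.64 ± 0.20 at 1 week. Cpt1a, which admits fatty acids to mitochondria, had means of 0.35 ± 0.21 and 0.52 ± 0.17, and Etfdh, the partner of Etfb, 0.06 ± 0.19 and 0.41 ± 0.15. The 1-week adjusted p-values of these 3 genes in limma's test were 0.683, 0.728 and 0.739.

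**Figure D4:**
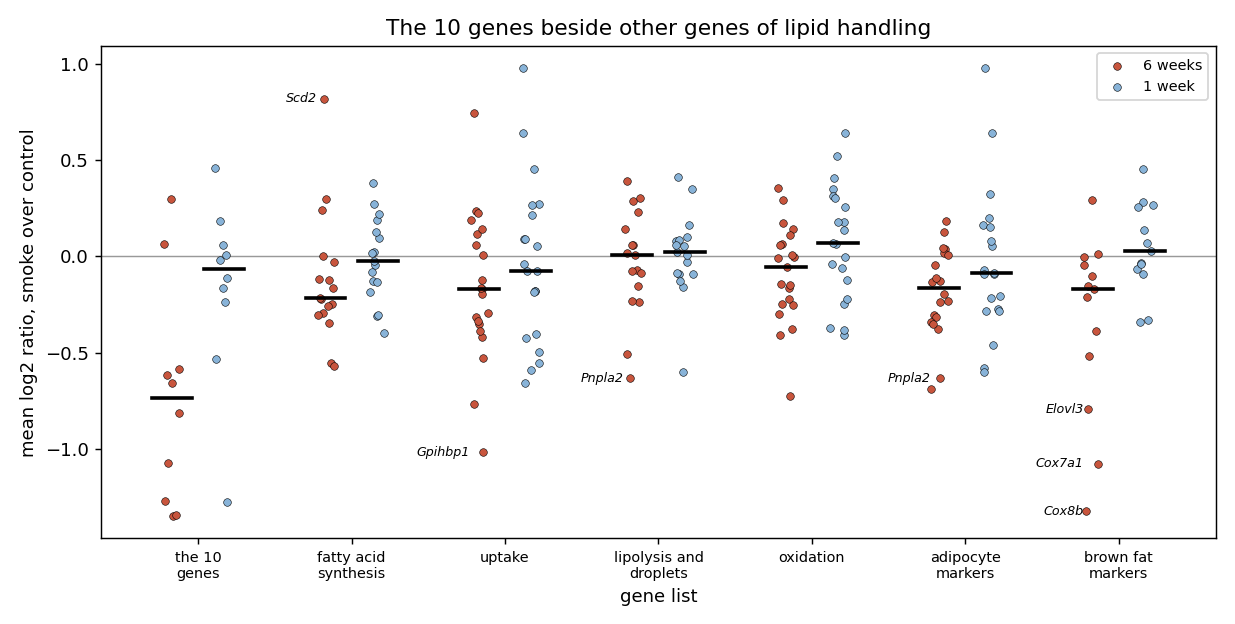
Mean log2 ratios (y axis) at 6 weeks (red, left in each pair) and 1 week (blue, right) of the 10 genes and of the other measured genes of 6 lists (x axis). Points are genes and black bars are medians; the 10 genes, chosen on these values, have a 6-week median of -0.73, and Cox8b, Cox7a1 and Gpihbp1 lie below -1 at 6 weeks outside them.

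The genes closest in value were found by the root mean square difference over the 6 arrays, among 5616 other named genes whose spots differed by less than 1 on every array. The mean profile of the 5 lipid enzymes and carriers was -0.70, -1.15 and -1.07 at 6 weeks and -0.56, -0.35 and -0.35 at 1 week. Its nearest genes were Arhgap27, at a difference of 0.26, Rtl8b at 0.26, Crabp1 at 0.27, Akap12 at 0.28 and Tax1bp3 at 0.29. The mean profile of the 5 fat cell genes was -0.46, -0.65 and -0.38 at 6 weeks and 0.31, -0.03 and 0.00 at 1 week. Nearest to it were Slc35f6 at 0.11, 8430429K09Rik at 0.13, and Lsm7, Qpct and Ypel5 at 0.15 each. Each profile averages unlike genes. Among the fat cell genes, 6-week means ran from -1.27 for Ucp1 to 0.30 for Retn. Among the enzymes and carriers, 1-week means ran from -1.28 for Fabp5 to -0.02 for Fabp4. The genes listed are thus near an average and need not be near any gene in it. With 6 arrays and so many genes, close profiles are found for many shapes, and these are given as a description.

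The sizes depend on the sign of the dye-reversed arrays. With the 6-week dye reversal turned, the 6-week means were -0.64 for Fasn, -0.58 for Mgll, -0.50 for Acsl3, -0.44 for Thrsp, -0.35 for Fabp4, -0.26 for Ucp1, -0.07 for Cidea and -0.04 for Fabp5. These means rest on the array against 6-week control alone, since the dye swap then averaged 0.12 for Fasn, 0.21 for Mgll, 0.18 for Acsl3 and 0.34 for Ucp1, and above 0 for the other 4 as well. From the 4 arrays with no dye-reversal label the means were close to those as deposited, at -1.28 for Fasn, -1.23 for Mgll, -0.98 for Acsl3 and -1.10 for Ucp1. For Fabp5 at 1 week the mean was -1.11 from those arrays and -0.20 with both dye-reversed arrays turned.

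**Figure D5:**
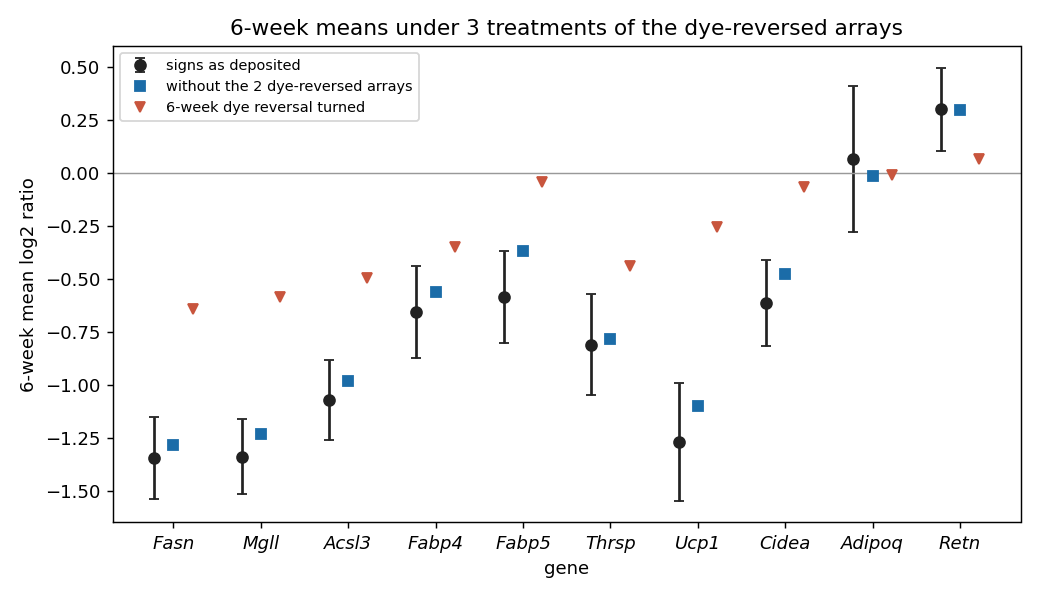
The 6-week mean log2 ratio (y axis) of each of the 10 genes (x axis) with signs as deposited (black, with the SE of the fit), without the dye-reversed arrays (blue) and with the 6-week dye reversal turned (red). Values without the dye-reversed arrays lie within 1 SE of those as deposited for 9 genes and just beyond it for Fabp5, and turning the dye reversal moves Fasn to -0.64 and Ucp1 to -0.26.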

How the data were processed

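RNA of sorted mouse endothelial cells after smoke and of control cells was hybridised together on 6 arrays of 2 channels, per the labels. The authors deposited 1 log2 ratio for each of 32448 spots per array. Per the file's values, each column has a median near 0 and nearly all ratios per array are folds in whole hundredths, within 0.02 of a hundredth. Scanner, background correction, normalization, filters and the dye of each channel are not given in the sources used here. Intensities were not used, so the depth of each spot's signal is unknown and precision is limited by how many arrays there are.

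A probe table paired 24344 spots with 1 gene symbol and 98 with several, and 8006 spots were not in it. Of the 24344, 24076 matched the RefSeq gene table of GRCm38.p6 by Entrez identifier and 0 symbols changed. Each array was centred on its median, and spots of a gene were averaged, which gave 11138 named genes. Spots with several symbols or none were tested singly and not named, for 19242 tests. Deposited signs were kept. The labelled dye swap of 6-week smoke against 1-week control was averaged before the fit.

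limma 3.58.1 (lmFit, eBayes; R 4.3.3) was fitted over all tests with 1 coefficient per exposure time, two-sided, with Benjamini-Hochberg adjustment and a threshold of 0.05. There were 3 residual and 2.39 prior degrees of freedom. SEs come from the spread pooled over both times. The script was tested on simulated arrays with known changes. Promoter windows are from RefSeq.

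The 10 genes and the gene lists were chosen with earlier results of these data known. Genes named besides the 10 were up to 4 per lipid list with the smallest unadjusted p at either time, defining markers, and the 5 genes nearest in profile to the 5 lipid enzymes and carriers and to the 5 fat cell genes. Lpl, Cldn5, Eng, Egfl7, Robo4, Tek, Ppargc1a and Bmp8b were chosen after their values were seen. Marker lists of fibroblasts, leukocytes, muscle, lung epithelium, hepatocytes and red cells had 6-week medians of -0.12, -0.01, 0.09, 0.03, 0.15 and -0.12, and 1-week medians of -0.30, -0.01, -0.0048, -0.12, 0.01 and -0.13. Alternatives changed the sign, use and dye term of the dye-reversed arrays, averaging, centring, scaling, the spots required, moderation and each array in turn. Entries of exactly 1.00-fold as missing, and the 1-week dye reversal averaged with replicate 2 or 3, were added after seeing the data.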

Additional observations from a re-analysis of the deposited data

Results flagged for a closer look

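Ucp1 was negative on all 3 6-week arrays and positive on all 3 1-week arrays, and its 6-week mean log2 ratio minus its 1-week mean was -1.73. Because Ucp1 was chosen on these values, the fit's test of its difference is not used, and the difference is given as a description. Plin2 and Fabp3, a fatty acid carrier of muscle and brown fat, were also negative at 6 weeks and positive at 1 week on every array. Their differences were -0.917 and -0.837. Scd2 was positive at 6 weeks and negative at 1 week on every array, with a difference of 0.947. Some of these signs rest on values near 0. Plin2 was at -0.09 against 6-week control, Fabp3 at 0.02 on 1-week replicate 2 and Scd2 at -0.01 on 1-week replicate 3. The share of all tests with such opposite signs is not given here. In limma's test of the difference over all 19242 tests these 3 genes each had an adjusted p of 0.951, above the threshold. The spots of Fabp3 differed by up to 1.97 on an array.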

How the results depend on the processing

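Of 240 summary values recomputed under 20 alternatives, 212 stayed within 1.5 times (counts) or the spread (medians). The 212 include medians that could not move. The moderation leaves a median as it was, and alternatives on 6-week arrays alone leave the 1-week median, and the reverse. Features passing were 0 in every comparison, except among genes with agreeing spots (102 at 1 week, 12 at 6 weeks; fewer genes tested) and without moderation of the spread (5 at 6 weeks and 5 for 6-week minus 1-week). Lipid list genes at an unadjusted p under 0.05 numbered 6 at 6 weeks, 6 at 1 week and 8 for the difference. At 6 weeks they became 1 with both dye-reversed arrays turned, 0 with only the 6-week one turned and 12 with dye as a term, and 4 to 10 leaving out each array (10 without the array of 6-week smoke against 1-week control). At 1 week they became 3 with both turned and 2 from the 4 arrays with no dye-reversal label, 3 with the 1-week dye reversal averaged with replicate 2, and 3 to 6 leaving out each array (3 without replicate 3). For the difference they became 1 with both turned, 1 with only the 6-week one turned, 3 from the 4 arrays and 5 without moderation, and 4 to 9 leaving out each array (4 without 1-week replicate 2, 5 without the 6-week dye reversal). The median of the 10 genes was -0.73 at 6 weeks, -0.06 at 1 week and -0.73 for the difference. It became -0.30 at 6 weeks under either turn, -0.34 (both turned) and -0.26 (6-week turned) for the difference, and at 1 week -0.15 from the 4 arrays and -0.12 with the 1-week dye reversal averaged with replicate 3. Leaving out each array gave -0.82 to -0.67 at 6 weeks, -0.15 to -0.055 at 1 week (-0.15 without replicate 1, -0.13 without replicate 3) and -0.79 to -0.63 for the difference. Apart from the turned signs, whose construction shows the cause, the cause was not tested.

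Of 597 values of single genes recomputed, 27 changed sign, for Fabp4, Thrsp, Cidea, Adipoq and Retn, and at 6 weeks for Adipoq alone. Many of the 597 could not change. The moderation and the choice of genes with agreeing spots leave a gene's mean as it was. Alternatives on 6-week arrays alone leave 1-week means as they were, and the reverse. Leaving out the array against 6-week control also removes 1 of 2 replicates, so it does not isolate control time. No paired analysis was possible because no label gives the groups shared replicate numbers.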
